A study of Homo sapiens with 4 samples.

Results

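The glycolytic enzymes described here are 10 genes measured in HepG2, a human cell line established from a hepatocellular carcinoma: HK1, HK2, GPI, PFKL, PFKM, ALDOA, TPI1, PGK1, ENO1 and LDHA. The genes were chosen by name, with earlier results of these data known. Each was read from the array row annotated to that symbol alone, or from the brightest such row where a gene had several, and all 10 were among the 14147 genes tested. The treated group had received anti-miR-191, an antisense oligonucleotide that blocks miR-191, and the other a negative control anti-miR, each delivered by transfection with Oligofectamine. RNA was profiled on 4 Affymetrix arrays, 2 for anti-miR-191 and 2 for the control, in 2 independent experiments that each gave 1 array per group. All arrays come from the same cell line, and no dose or harvest time was taken from the labels. The question put to the arrays is how blocking miR-191 alters the transcripts of these cells.

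Glycolysis splits glucose into pyruvate in the cytosol and yields ATP without oxygen, and lactate dehydrogenase then turns pyruvate into lactate. Hexokinase and phosphofructokinase are the early, regulated steps, whereas most enzymes from aldolase to enolase work near equilibrium. Liver tumour cells tend to replace the liver's own isozymes with forms found in many tissues, and the transcription factors HIF-1 and MYC are known to raise many of these genes.

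The microRNA that the inhibitor was directed against is shown first because it defines the treatment. The letters in capitals are the seed, bases 2 to 8, through which a microRNA pairs with its targets (RefSeq, GRCh38.p14, chr3:49020672-49020694, minus strand).
hsa-miR-191-5p: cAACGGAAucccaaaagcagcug
No mature microRNA was read here, and the degree of inhibition was not measured.

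None of the 10 glycolytic enzymes changed after anti-miR-191 by the test used. Levels are log2 RMA intensities, and a change is the log2 difference anti-miR-191 minus control, averaged over both experiments and given ± SE from limma's moderated fit with the experiment as a block. The words rose and fell are kept for genes with an adjusted p under 0.05 over the whole table. By this rule 0 of 10 enzymes passed, where 13.9% of all genes tested did (10.1% higher and 3.77% lower). At an unadjusted p under 0.05, limma counted 3 of the 10 (HK1 and PGK1 higher, PFKL lower), which is 30% beside 28.1% of all genes. In the fit without the block, 0 of 10 passed as well, with 3.91% of all genes called (3.2% higher and 0.714% lower). At an unadjusted p under 0.05 that limma fit counted 2 of the 10 (HK1 and PGK1), beside 3048 of all 14147 genes. In bulk samples such as these, fewer cells with a transcript and less of it per cell cannot be told apart. The smallest change called anywhere in the table was 0.53, and the largest of the 10, that of PFKL, was 0.50 in size. The 95% intervals, which belong to each gene alone and are not adjusted over genes, reached from -0.84 (PFKL) to 0.86 (PGK1). In this blocked fit, with 1 residual degree of freedom, a change of 2-fold lay outside the interval of each of the 10. For 5 of the 10 it also stayed within 1.5-fold either way (GPI, PFKM, ALDOA, ENO1 and LDHA). Without the block the SEs of PFKL, GPI and LDHA were 0.26, 0.19 and 0.20, so their intervals were wider and these bounds did not hold. The intervals then passed a 2-fold fall for PFKL, a 1.5-fold fall for GPI and a 1.5-fold rise for LDHA. HK1 and PFKM were dim, and an interval at such a level does not bound the change of the transcript.

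**Figure D1:**
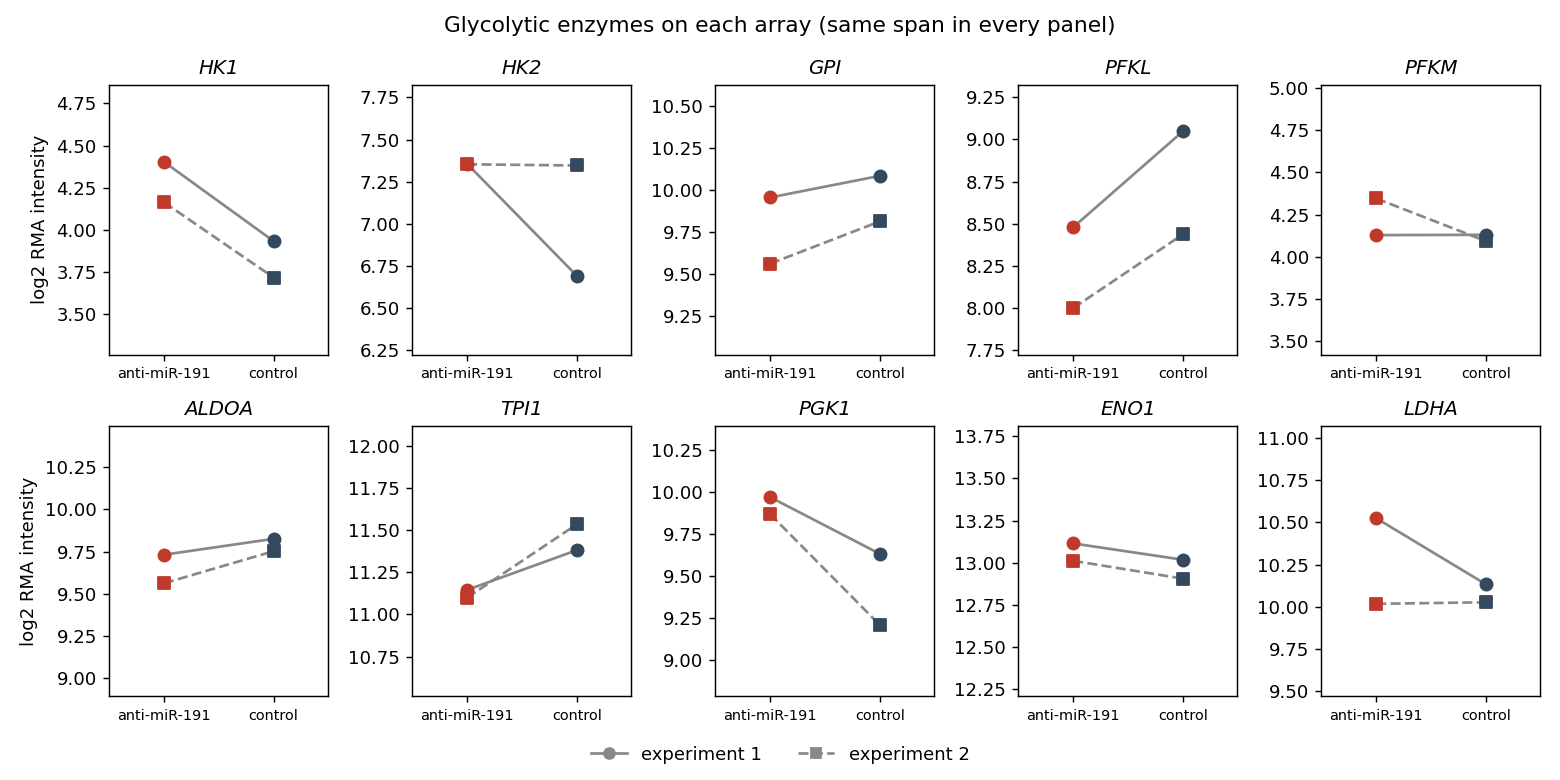
Level of each of the 10 glycolytic enzymes on all 4 arrays, as log2 RMA intensity (y axis, with the same span in every panel), with anti-miR-191 on the left and control on the right. Lines join the 2 arrays of an experiment (circles and solid line, experiment 1; squares and dashed line, experiment 2). PFKL slopes up from anti-miR-191 to control in both experiments, while HK1 and PGK1 slope down.

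Hexokinases, which trap glucose in the cell as glucose 6-phosphate, had positive changes for both members. HK1, the form found in most tissues, read 4.40 and 4.16 in experiments 1 and 2 after anti-miR-191, against 3.93 and 3.72 in controls. Both anti-miR-191 arrays lay above both controls, and the changes of 0.47 and 0.45 were close to each other. The mean change was 0.46 ± 0.14 (95% interval 0.12 to 0.79), with limma's adjusted p = 0.078 over all genes. HK1 was dim, and its level is not shown to be above background: 20 markers of cell types other than hepatocytes, from PTPRC (2.57) to LYZ (9.40), had medians between 3.89 and 4.01 on the 4 arrays.

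HK2, the form raised in many tumours, read 7.36 and 7.35 after anti-miR-191, against 6.69 and 7.35 in controls. The control array of experiment 1 stood below the other 3 arrays, which were nearly equal. The changes were 0.66 in experiment 1 and 0.01 in experiment 2, with a mean of 0.34 ± 0.19 (adjusted p = 0.297 by limma). Without that control array the change was 0.01 in the unpaired fit.

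GPI, which interconverts glucose 6-phosphate and fructose 6-phosphate, read 9.96 and 9.56 after anti-miR-191, against 10.08 and 9.81 in controls. The groups overlapped, and the difference of experiment 2 minus experiment 1 within a group (-0.39 for anti-miR-191 and -0.27 for the control) was larger in size than the change. GPI had a change of -0.19 ± 0.15 (interval -0.53 to 0.15, limma's adjusted p = 0.460).

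Phosphofructokinase, the committed step of the pathway, held the lowest of the 10 changes. PFKL, the liver form, read 8.48 and 7.9995 after anti-miR-191, against 9.05 and 8.44 in controls. It was lower after anti-miR-191 in each experiment, with changes of -0.57 and -0.44, yet the groups overlapped, and both arrays of experiment 2 read lower than those of experiment 1 (a difference of -0.48 for anti-miR-191 and -0.61 for the control). The mean change was -0.50 ± 0.15 (interval -0.84 to -0.16), a level 0.706 times that of controls, with limma's adjusted p = 0.060. PFKL passed in 1 alternative, moderation with an intensity trend and robust variances (adjusted p = 0.049), and had an adjusted p of 0.333 without the block. PFKM, the muscle form, read 4.13 and 4.35 after anti-miR-191, against 4.13 and 4.09 in controls, also a dim level that is not shown to be above background. Its change was 0.13 ± 0.15 (adjusted p = 0.651 by limma), with -0.00 in experiment 1 and 0.25 in experiment 2.

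The enzymes that cleave fructose 1,6-bisphosphate and interconvert its products had negative changes. ALDOA, the aldolase of muscle and most tissues, read 9.73 and 9.56 after anti-miR-191, against 9.83 and 9.75 in controls. The groups did not overlap but lay close together, and the change was -0.14 ± 0.14 (limma's adjusted p = 0.587). TPI1, triosephosphate isomerase, read 11.15 and 11.10 after anti-miR-191, against 11.38 and 11.53 in controls. Both anti-miR-191 arrays lay below both controls. The change was -0.33 ± 0.15 (interval -0.68 to 0.01, limma's adjusted p = 0.190). A second, dimmer row for TPI1 read 8.61 and 8.80 after anti-miR-191, against 9.04 and 9.16 in controls, so the rows gave the same direction. With every row that has 1 symbol and is above the dim limit tested on its own, the dimmer row had a change of -0.40 ± 0.15 (adjusted p = 0.115 by limma).

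The first enzyme of the pathway that makes ATP held the highest of the 10 changes. PGK1, phosphoglycerate kinase, read 9.97 and 9.87 after anti-miR-191, against 9.63 and 9.21 in controls. Both anti-miR-191 arrays lay above both controls, and the control array of experiment 2 was the lowest. The changes were 0.34 and 0.66, with a mean of 0.50 ± 0.15 (interval 0.14 to 0.86, 1.41-fold), and limma's adjusted p was 0.077. Within each experiment PGK1 exceeded TPI1 in its change by 0.57 and 1.09, a difference between genes that a shift of a whole array would leave as it is and that was not tested.

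ENO1, the enolase of most tissues, read 13.11 and 13.01 after anti-miR-191, against 13.02 and 12.91 in controls, with changes of 0.10 and 0.11. The groups overlapped by a small margin. The mean was 0.10 ± 0.14 (interval -0.23 to 0.44, limma's adjusted p = 0.707). In the blocked fit this bounds the change in array intensity, and not that of the transcript itself, at 1.35-fold upward. LDHA, the lactate dehydrogenase subunit that predominates in muscle and in many tumours, read 10.52 and 10.02 after anti-miR-191, against 10.13 and 10.03 in controls. The anti-miR-191 array of experiment 1 stood above the other 3, which were close to each other. The changes were 0.39 and -0.01, and the mean was 0.19 ± 0.16 (adjusted p = 0.502 by limma). Without that array the unpaired change was -0.06. RefSeq lists pseudogenes named after LDHA (6), TPI1 (4), ENO1 (4), ALDOA (2), PGK1 (2) and HK2 (1), and probes that also match such copies would mix their signal with that of the gene.

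The 10 changes thus pointed both ways along the pathway. There were 6 positive and 4 negative ones, and 8 of 10 had the same sign in both experiments, beside 69.6% of all genes tested. The groups did not overlap for 5 of 10 (HK1, HK2 and PGK1 higher after anti-miR-191, ALDOA and TPI1 lower), beside 53.2% of all genes (29.4% higher and 23.8% lower). For HK2 the gap between the groups was under 0.01. The median of the 10 mean changes was 0.11, and over all genes tested it was 0.01. Within the experiments the median of the 10 was 0.05 and -0.00. Of the 10 enzymes 7 had a mean level of 8 or more over the 4 arrays. Among all 1726 genes tested at such levels, the median change was -0.05, with 11.1% called higher and 15.2% called lower.

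**Figure D2:**
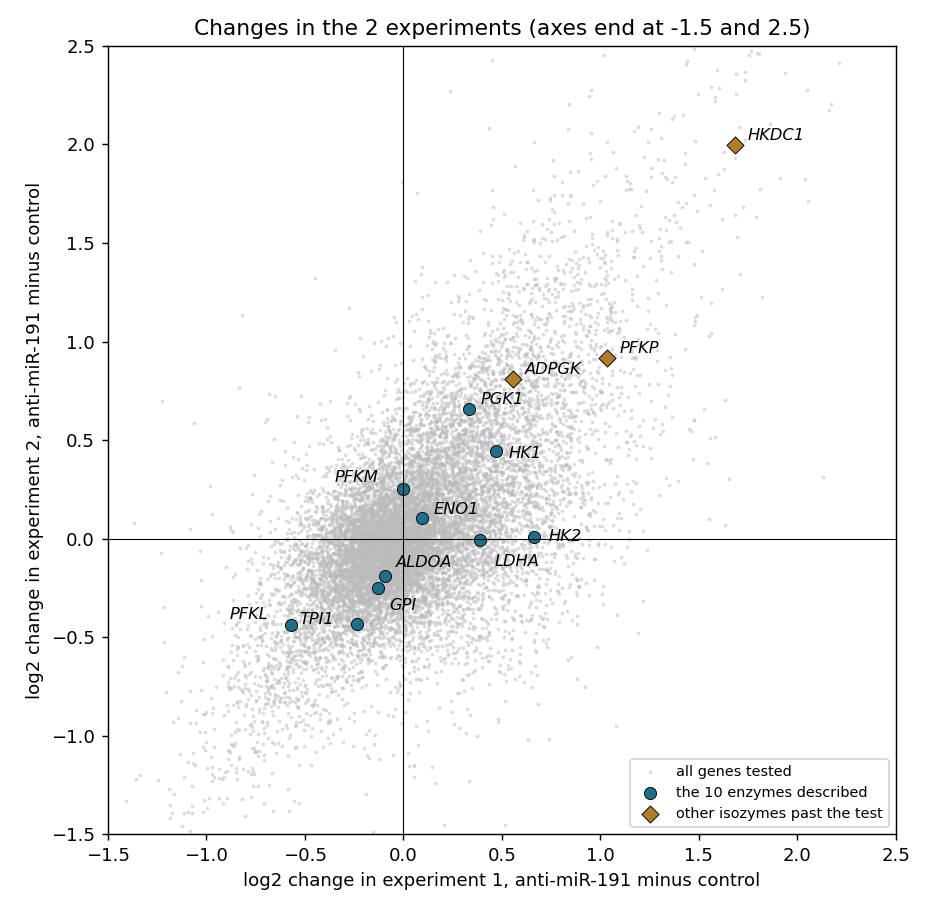
Log2 change in experiment 1 (x axis) against experiment 2 (y axis), anti-miR-191 minus control, for all genes tested (grey), the 10 glycolytic enzymes (circles) and the 3 other isozymes or steps of glycolysis that passed the test (diamonds). HK2 and LDHA lie on the horizontal axis line, with changes of 0.66 and 0.39 in experiment 1 and of 0.01 and -0.01 in experiment 2, and HKDC1 lies far to the upper right.

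Among the other isozymes and steps of glycolysis, 3 of 15 tested genes rose and 0 fell, beside 10.1% of all genes called higher and 3.77% called lower. HKDC1 and ADPGK belong to the phosphorylation of glucose, and PFKP to the phosphofructokinase step. The number of these called genes was not tested against those shares. HKDC1, a hexokinase-like gene that lies next to HK1, read 8.58 and 8.75 after anti-miR-191, against 6.90 and 6.75 in controls. Both anti-miR-191 arrays stood above both controls. It rose 3.58-fold (1.84 ± 0.15, limma's adjusted p = 0.0016). PFKP, the platelet form of phosphofructokinase, read 7.03 and 6.92 after anti-miR-191, against 5.998 and 6.002 in controls, and rose 1.97-fold (0.98 ± 0.15, adjusted p = 0.0069). ADPGK, a glucokinase that uses ADP, read 6.97 and 7.15 after anti-miR-191, against 6.41 and 6.34 in controls, and rose 1.60-fold (0.68 ± 0.15, adjusted p = 0.024). ADPGK did not pass without the block (adjusted p = 0.064) or after quantile normalization (0.067), whereas HKDC1 and PFKP passed in both fits. With single arrays left out, HKDC1 passed with anti-miR-191 experiment 1 omitted (adjusted p = 0.017) but not with any of the other 3 omitted (0.082 to 0.104), and PFKP and ADPGK passed in none of these 4 fits (0.092 to 0.163 and 0.132 to 0.364).

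At these steps the changes of single isozymes can be set side by side within each experiment. The change of HKDC1 exceeded that of HK2 by 1.02 in experiment 1 and by 1.99 in experiment 2. The change of HK1 minus that of HK2 was -0.19 in experiment 1 and 0.44 in experiment 2, with HK1 at a level not shown to be above background. The change of PFKP exceeded that of PFKL by 1.60 and 1.35. These differences between genes were not tested, and they concern changes, since the levels of different probe sets cannot be set against each other.

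**Figure D3:**
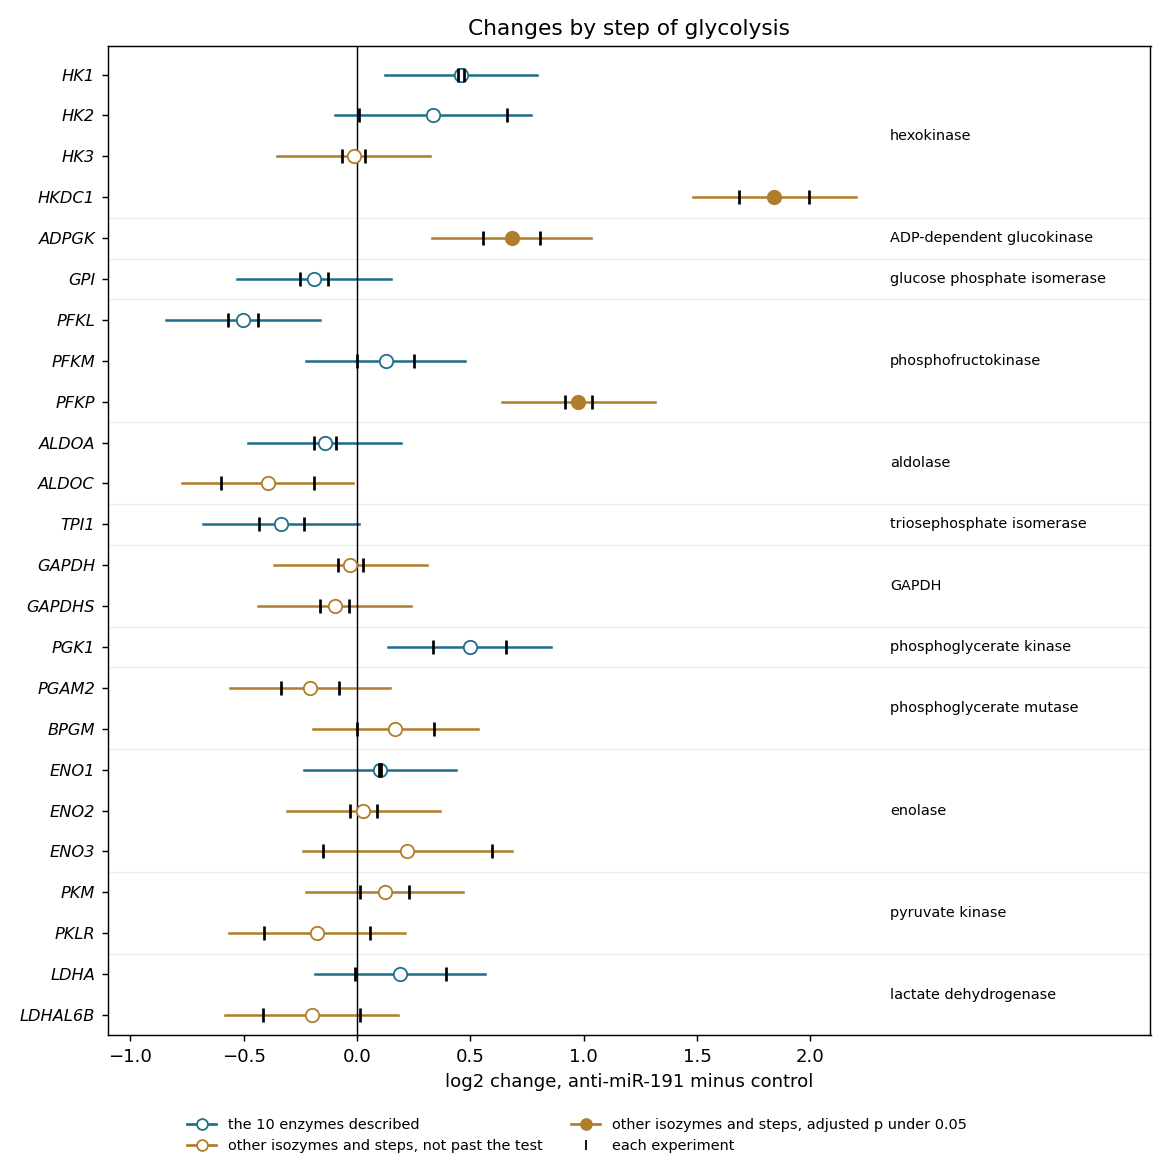
Log2 change, anti-miR-191 minus control (x axis), for genes ordered by step of glycolysis, with 95% intervals from limma's paired fit as lines, the mean as a circle and each experiment as a tick. Blue marks the 10 enzymes, all with open circles, and brown marks the other isozymes and steps, of which HKDC1, PFKP and ADPGK have filled circles (adjusted p under 0.05).

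The remaining 12 of these 15 genes did not pass. GAPDH, the step between TPI1 and PGK1, read 13.17 and 13.14 after anti-miR-191, against 13.15 and 13.22 in controls, a change of -0.03 ± 0.15. RefSeq lists 65 pseudogenes named after it. PKM, the pyruvate kinase of most tissues and tumours, had a change of 0.12 ± 0.15, and PKLR, the liver and red cell form, one of -0.18 ± 0.17. ALDOC, the aldolase of brain, had a change of -0.39 ± 0.16 (limma's adjusted p = 0.160). PGAM5, named for its resemblance to the mutases, is a mitochondrial phosphatase and had a change of -0.07. The 5 rows for PGAM1 are shared with PGAM4 in the annotation and were not tested. Their changes lay between -0.12 and -0.03 in experiment 1 and between 0.09 and 0.13 in experiment 2.

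Transporters and regulators around the pathway were read from lists chosen by function, beside 10.1% of all genes called higher and 3.77% called lower. Of 8 transporters of glucose and lactate tested, 0 passed in limma's paired fit, and their median change was 0.26. At an unadjusted p under 0.05 there were 3 in this fit, beside 28.1% of all genes. SLC2A1, the glucose carrier GLUT1, read 11.66 and 11.70 after anti-miR-191, against 11.23 and 11.24 in controls (change 0.44 ± 0.14, adjusted p = 0.085). SLC2A2, the liver carrier GLUT2, had a change of 0.59 ± 0.17 (adjusted p = 0.063). SLC2A8, another glucose carrier, had a change of 0.37, and BSG, the chaperone of lactate carriers, one of -0.32. Of 14 regulators of flux 1 rose and 1 fell. PFKFB3, which makes the activator fructose 2,6-bisphosphate, read 7.21 and 8.03 after anti-miR-191, against 6.43 and 6.52 in controls, and rose 2.21-fold (adjusted p = 0.011). PDK2, a kinase that inhibits pyruvate dehydrogenase, read 7.08 and 6.43 after anti-miR-191, against 7.57 and 7.32 in controls, and fell by 0.69 ± 0.16 (adjusted p = 0.028). Neither passed without the block (adjusted p = 0.073 and 0.169). With single arrays left out, PFKFB3 passed only with anti-miR-191 experiment 1 omitted (0.027, against 0.159 to 0.267 in the other 3 fits), and PDK2 in none (0.089 to 0.632).

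The neighbouring routes of sugar metabolism were read in the same way, beside 10.1% of all genes called higher and 3.77% called lower. Of 6 genes of gluconeogenesis 0 passed in limma's paired fit. At an unadjusted p under 0.05 there were 1 higher and 1 lower in this fit, beside 28.1% of all genes. G6PC3, a glucose 6-phosphatase of most tissues, came nearest (-0.53 ± 0.14, adjusted p = 0.051). PC, pyruvate carboxylase, SLC37A4, the glucose 6-phosphate carrier, and FBP1, fructose 1,6-bisphosphatase, had changes of 0.45, -0.33 and -0.19. Of 8 genes of the pentose phosphate pathway 0 passed in the same fit. At an unadjusted p under 0.05 it counted 1 lower, beside the same 28.1% of all genes. The changes were -0.53 for PGLS, 0.32 for PGD, -0.30 for TALDO1 and -0.22 for TKTL1, all enzymes of the pathway or, for TKTL1, a gene resembling one. Of 14 genes of glycogen metabolism 3 rose and 0 fell. PYGB, the brain form of glycogen phosphorylase, read 9.85 and 9.52 after anti-miR-191, against 9.03 and 8.77 in controls, and rose 1.72-fold (adjusted p = 0.013). PYGM, the muscle form, averaged 5.05 after anti-miR-191 and a dim 4.03 in controls (adjusted p = 0.011). PHKA2, a subunit of phosphorylase kinase, rose 1.47-fold with an adjusted p of 0.046, which was between 0.0505 and 0.114 under 6 alternatives, median centring (0.056) among them. Of 17 genes of the citric acid cycle 0 rose and 2 fell, namely IDH2, the mitochondrial NADP-dependent isocitrate dehydrogenase (-0.63 ± 0.15, adjusted p = 0.029), and SDHC, a subunit of succinate dehydrogenase (-0.67 ± 0.15, adjusted p = 0.024, and 0.058 with all rows of the gene averaged). The dimmer SDHC row had changes of -0.16 and -0.80, and whether either row also reads copies of the gene was not tested. For SDHD, another subunit, a dimmer row had changes of 0.99 and 0.81, against -0.05 and 0.34 in the row used. Without the block PYGM passed (adjusted p = 0.047), while PYGB, PHKA2, IDH2 and SDHC did not (adjusted p = 0.072, 0.095, 0.128 and 0.095). With single arrays left out, PYGM passed only with anti-miR-191 experiment 1 omitted (0.047), and the other 4 in none of these fits.

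**Figure D4:**
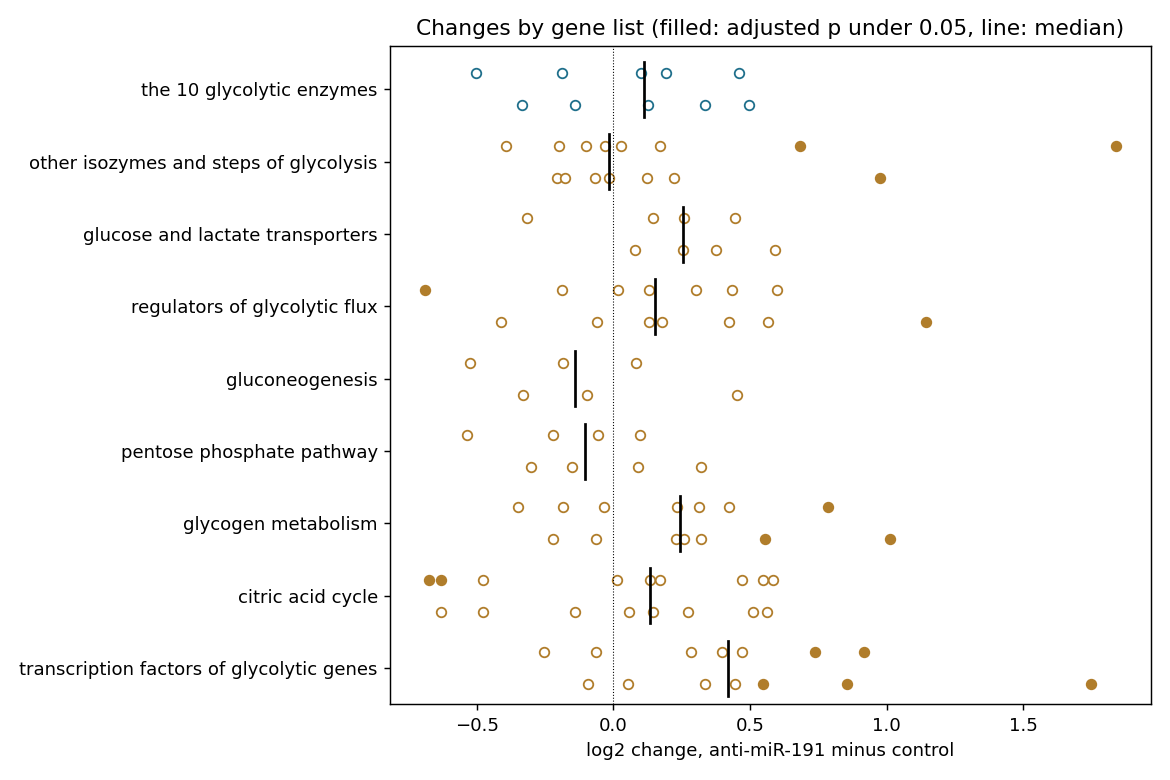
Log2 change, anti-miR-191 minus control (x axis), for each tested gene of 9 lists (rows). Filled circles have an adjusted p under 0.05 in limma's paired fit, open circles do not, and vertical lines are list medians, 0.11 for the 10 glycolytic enzymes and 0.42 for the transcription factors.

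Transcription factors known to act on glycolytic genes had the highest median of these lists, 0.42, with 5 of 14 higher and 0 lower. MYC read 10.11 and 10.52 after anti-miR-191, against 8.63 and 8.50 in controls, and rose 3.36-fold (adjusted p = 0.0022). NFE2L2, the oxidative stress factor NRF2, rose 1.81-fold (limma's adjusted p = 0.013, and 0.068 without the block). With single arrays left out the log2 change of NFE2L2 lay between 0.63 and 1.09. ARNT, the partner of HIF-1 alpha, rose 1.89-fold, and the glucose-responsive factor MLXIP and KLF4 rose 1.46-fold and 1.67-fold. Of the 5, MYC alone passed without the block, and with single arrays left out it passed only with anti-miR-191 experiment 1 omitted (0.017, against 0.085 to 0.104). After quantile normalization ARNT, KLF4 and MLXIP did not pass (0.052, 0.071 and 0.101), and MLXIP did not after median centring or cyclic loess (0.055 and 0.065). HIF1A read 7.44 and 7.15 after anti-miR-191, against 6.67 and 7.24 in controls, with changes of 0.77 and -0.10 (adjusted p = 0.361). In all, 96 genes of these 8 lists were tested, of which 12.5% rose and 3.13% fell, beside 10.1% and 3.77% of all genes.

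The promoters of PGK1, LDHA and PFKL are shown to set the letters of known binding motifs beside the values above. PGK1 had the highest and PFKL the lowest change, and LDHA held the most matches when both strands are counted. Each line gives the 250 bases before the annotated start (RefSeq, GRCh38.p14, plus strand), at chrX:78103998-78104247, chr11:18394313-18394562 and chr21:44299803-44300052. Capitals mark ACGTG and GCGTG on either strand, the core of the hypoxia response element bound by HIF-1.
PGK1: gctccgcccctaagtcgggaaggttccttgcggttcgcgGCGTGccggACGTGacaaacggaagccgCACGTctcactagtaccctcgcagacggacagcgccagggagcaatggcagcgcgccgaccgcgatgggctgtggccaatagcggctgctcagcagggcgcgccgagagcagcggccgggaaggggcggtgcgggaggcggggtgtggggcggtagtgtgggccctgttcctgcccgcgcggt
LDHA: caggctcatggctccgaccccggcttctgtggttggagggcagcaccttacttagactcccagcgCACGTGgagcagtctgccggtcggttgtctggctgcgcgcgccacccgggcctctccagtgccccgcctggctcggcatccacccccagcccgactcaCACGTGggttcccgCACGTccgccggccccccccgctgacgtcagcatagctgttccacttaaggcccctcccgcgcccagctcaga
PFKL: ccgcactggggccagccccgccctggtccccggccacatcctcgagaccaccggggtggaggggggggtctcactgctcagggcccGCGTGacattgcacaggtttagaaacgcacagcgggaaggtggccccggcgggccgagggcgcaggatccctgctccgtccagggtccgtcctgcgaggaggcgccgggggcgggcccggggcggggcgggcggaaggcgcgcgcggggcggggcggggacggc
PGK1 had 2 matches to ACGTG and 1 to GCGTG. LDHA had 5 to ACGTG, of which 4 come from 2 copies of the E-box CACGTG, bound by MYC, since this palindrome holds the shorter motif on each strand. PFKL had 1 match to GCGTG. Over the first listed promoter of each of the 10 genes, ACGTG was found in 5, GCGTG in 4 and CACGTG in 1. Over 27305 promoters of the same length, the shares were 18.7%, 31.9% and 6.49%. A match describes letters and not binding. With each palindrome counted once, LDHA had no more marked stretches than PGK1. The change of LDHA was 0.39 in experiment 1 and -0.01 in experiment 2.

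The arrays had medians between 4.37 and 4.43. Their interquartile ranges were 3.38 and 3.43 for anti-miR-191, against 3.18 and 3.24 for the control. Of the 14 hepatocyte markers 13 had a row, and APOA2 was the brightest (12.8). Their median level was 10.0 and 9.65 after anti-miR-191, against 10.1 and 10.6 in controls. Their log2 levels summed to 123 and 117, against 124 and 125. TTR fell by 1.04 ± 0.14 (limma's adjusted p = 0.0057), and 12 of the 13 had a negative mean change. Only 5 of the 13 had the same sign in both experiments, beside 69.6% of all genes. The median change of the 13 was 0.02 in experiment 1 and -0.56 in experiment 2. The 20 markers of other cell types summed to 86.7 and 86.2 after anti-miR-191, against 87.2 and 85.9 in controls. Of the 16 tested, 0 passed in limma's paired fit, beside 13.9% of all genes. At an unadjusted p under 0.05 there were 1 higher and 1 lower in this fit, beside 28.1% of all genes. The part of the hepatocyte marker levels and of the array spread in the values of the 10 enzymes was not tested.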

How the data were processed

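Total RNA was measured on 4 one-colour arrays. The authors deposited log2 intensity values that, per the submitters' processing notes, come from RMA in Affymetrix Expression Console. Neither the software version nor the annotation release was given in the sources, and log base 2 rests on RMA's usual output. No detection calls were used, and dim levels are not shown to be above background. The number of arrays limits the precision.

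Of 33297 rows, 19460 had 1 symbol in GEO's 2016 platform annotation, 1754 several and 12083 none. The dimmest 33.3% (mean below 3.41) were left out, and each gene's brightest row was kept. limma 3.58.1 (R 4.3.3) was run two-sided with the experiment as a block, 1 residual and 6.60 prior degrees of freedom, and Benjamini-Hochberg adjustment over 14147 genes. The pairing comes from the series text and the titles, and deviations within same-numbered pairs had a correlation of 0.335 across genes. An exact permutation test of 2 against 2 cannot go below p = 0.333. On simulated data of 14147 genes, with 50 changed at each of 4 sizes, 100% of log2 changes of 2, 62% of 1 and 0% of 0.585 were called, and 6 of 13947 unchanged genes. Far fewer genes changed in the simulation than the 13.9% called on these arrays, which makes the adjusted threshold stricter there. The smallest change called on these arrays was 0.53, so the simulated 0% at 0.585 does not describe this table.

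All 10 enzymes are named, and of each other list the members past the threshold or otherwise up to 4 with the largest changes. ALDOC, GAPDH, PKM, PKLR, PGAM5, HIF1A, the marker genes, the PGAM1 rows and the 3 promoters were named after their values were seen. Members and lists were chosen with earlier results of these data known. Alternatives covered the block, dim filter, scaling, rows per gene, moderation, a fold threshold and single arrays left out. Figures used matplotlib 3.10.9.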

Additional observations from a re-analysis of the deposited data

How the results depend on the processing

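In limma, 1 glycolytic enzyme (PFKL, lower) passed under moderation with trend and robust variances. Under the other alternatives that keep all 4 arrays, 0 passed. Among these, the fold threshold was added to the main fit, in which 0 enzymes passed, so it could not call one. Fits with single arrays left out are not counted here, since those that called no gene in the whole table could not call an enzyme. Of the 15 called genes of glucose metabolism, none turned its direction under the alternatives run for single genes. Other called genes, TTR among them, were not followed one by one. The uncalled changes of GPI and LDHA turned sign when 1 anti-miR-191 array was left out (0.01 without that of experiment 2 for GPI, -0.06 without that of experiment 1 for LDHA). The median change of the 10 enzymes, 0.11, was 0.18 after cyclic loess and -0.0206 with rows below the median level left out, which keeps 8 of the 10. It lay between -0.00661 and 0.0847 with single arrays left out. Over all genes 1428 rose and 533 fell. Without the replicate block 452 rose and 101 fell, and after quantile normalization 896 rose. With single arrays left out, in the fit without the block, where the lone array of a group is assumed to vary like the other group, 0 to 315 rose and 0 to 24 fell. The counts above 0 came without the first anti-miR-191 array, and the other 3 fits gave 0, with 1663, 2432 and 3178 genes at an unadjusted p under 0.05. Of the other genes of glucose metabolism, 12 rose and 3 fell, against 4 and 0 without the replicate block, 7 higher after quantile normalization, and 0 to 4 higher and 0 lower with single arrays left out. Apart from the fewer arrays or rows, the cause of these shifts was not tested.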
